A study of Homo sapiens with 12 samples.

Results

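Peaks of N4-acetylcytidine (ac4C), a modified cytidine in RNA, were examined in 9 genes of growth factor signalling: the ligand FGF2, its receptors FGFR1, FGFR2, FGFR3 and FGFR4, the kinases AKT1, AKT2 and MTOR, and RPTOR. Every peak whose deposited gene symbol was one of these 9 was taken from 4 peak lists, which gave 207 of 140401 peaks. The peaks lay in 8 of the 9 genes, out of 10992 genes with a peak in any list, and FGFR3 had none.

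FGF2 is a secreted growth factor that is added to the medium of human embryonic stem cells to hold them in self-renewal. It binds FGF receptors, which are tyrosine kinases of the cell surface, and they pass the signal on through RAS and ERK and through PI3K and AKT. AKT in turn promotes the activity of the kinase mTOR, which works in mTORC1 with the scaffold protein RPTOR and drives protein synthesis and growth.

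H1 cells, a line of human embryonic stem cells, were used, and fragments of RNA were captured with an ac4C antibody and sequenced (ac4C-RIP-seq). One group was labelled wild type. The other carried a short hairpin RNA against NAT10, the RNA cytidine acetyltransferase, from a lentivirus that also encodes GFP. After 48 hours of culture its GFP-positive cells were enriched and expanded in TeSR-E8 with 0.5 ug/ml puromycin, while the general growth protocol names PGM1 medium on Matrigel. The labels name no control hairpin, so transduction, sorting, puromycin and medium cannot be told apart from the loss of NAT10. Each group had 2 immunoprecipitation libraries, and nothing in the labels says that they came from separate cultures, so p-values rest on a spread between samples that may be purely technical. Input and IgG libraries made up the rest of the 12 samples and were not analysed here. In such bulk libraries, fewer peaks cannot be told apart from fewer cells of a type or less RNA per cell.

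There were 37988 and 38150 listed peaks in wild type and 27787 and 36476 after knockdown, and read depth is unknown. A further 6048 and 6713 peak numbers in wild type and 7213 and 8564 after knockdown were carried by no listed peak. NAT10 itself had 7 and 9 listed peaks in wild type and 0 in each library after knockdown. At its place, 3 and 4 peak numbers of the knockdown lists were carried by no listed peak, and 3 and 5 of the wild-type lists. Such numbers are explained below. All 14 embryonic stem cell markers had a peak in at least 1 list, and 9 of them had one in all 4. Their summed peaks were 110 and 105 in wild type and 64 and 70 after knockdown. POU5F1 had 3 and 4 and then 0 and 2. Of the 14, only SOX2, NANOG, SALL4 and TDGF1 had a higher mean after knockdown. SOX2 had 6 and 4 and then 5 and 8, and NANOG had 5 and 4 and then 6 and 5. SALL4 had 9 and 8 and then 7 and 11, and TDGF1 had 4 and 0 and then 5 and 8. Peak numbers were higher in wild type with no overlap for 8 of the 14, or 57.1%, against 22.3% of all genes with a peak. They were higher after knockdown with no overlap for 1, or 7.14%, against 16.6%. DNMT3B (14 and 10 peaks in wild type) and PRDM14 (2 and 4) were without a listed peak after knockdown. No listed peak carried 11 and 15 numbers at the place of DNMT3B in the knockdown lists, against 5 and 6 in wild type. For PRDM14 they were 1 and 1, against 0 and 1. For TDGF1, the 1 marker higher after knockdown with no overlap, they were 14 and 5, against 9 and 19. Such numbers may mark unlisted peaks of these genes or of a neighbour. DNMT3B and PRDM14 were 15.4% of the 13 markers that each wild-type library held, against 12.8% among all genes. The median difference over the 14 was -2.25. NES and OTX2 were the only ectoderm markers with a peak, and none of the mesoderm, endoderm or trophectoderm markers had one. Over all genes with a peak, the median difference in peak number, knockdown minus wild type, was -0.5.

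A gene or region is called lost where it had peaks in both libraries of wild type and none after knockdown, gained where the reverse was true, kept where it had peaks in all 4 lists, and mixed otherwise. The deposited peak numbers follow, for nearly all peaks, the order of gene identifiers. A number that no listed peak carries is called missing here and marks a peak that was numbered but is not listed. It can be placed only between the listed peaks on either side of it, and where these are of different genes it may belong to a neighbour in that order. None of the 4 signalling genes found in both libraries of wild type was lost, against 12.8% of all genes. FGFR4 and RPTOR were gained, 2 of the 8 members found in both knockdown libraries, against 17.1%. FGF2, FGFR1, FGFR2 and MTOR were kept, 4 of 8 with a peak, against 32.3%. AKT1 and AKT2 were mixed, against 52.4%. Peak numbers of the genotypes did not overlap for 1 member that was higher in wild type, against 22.3%, and for 3 that were higher in the knockdown, against 16.6%. Of the 4 kept members, FGF2 alone did not overlap with wild type higher, against 31.9% of kept genes, and none did with the knockdown higher, against 12.6%. The median difference over the 8 members with a peak was 2.25. With 2 libraries against 2, the two-sided exact permutation test cannot give a p below 0.333, so no member could pass a threshold of 0.05.

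**Figure D1:**
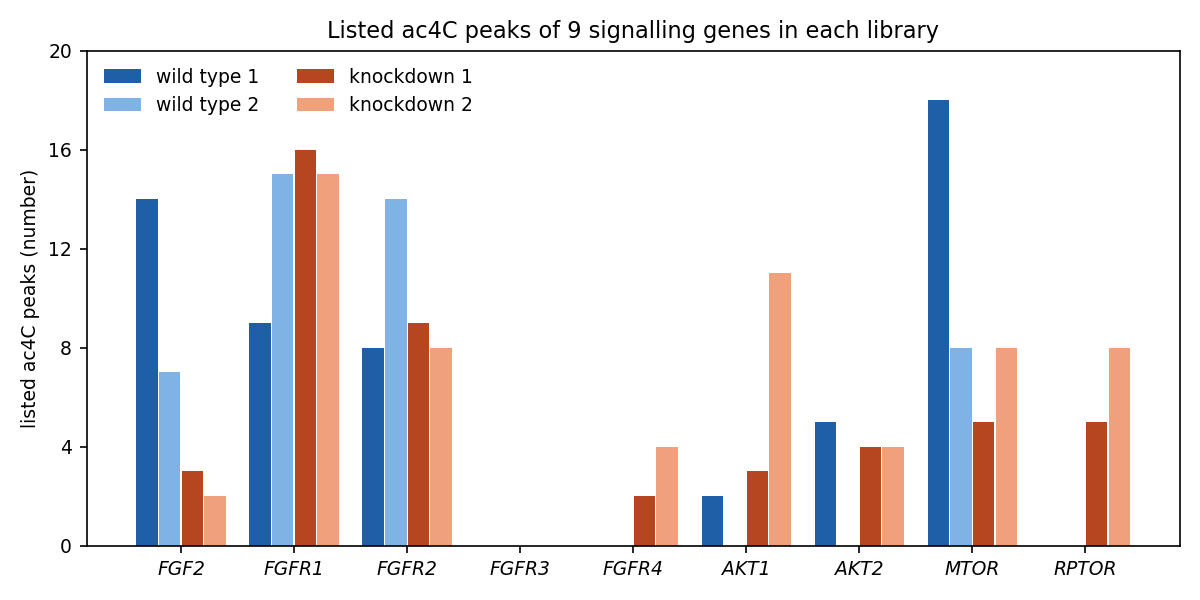
Number of listed ac4C peaks (y axis) in each of the 9 genes (x axis), with 1 bar for each of the 2 wild-type and 2 knockdown libraries. Both wild-type bars of FGF2 are taller than its knockdown bars, both knockdown bars of FGFR4, AKT1 and RPTOR are taller than their wild-type bars, and FGFR3 is at 0 throughout.

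FGF2, the ligand, had 14 and 7 peaks in wild type and 3 and 2 after knockdown. Both wild-type values lay above both knockdown values. The means were 10.5 ± 4.95 (SD, n = 2) and 2.5 ± 0.707 (SD, n = 2), a difference of -8 with an exact permutation p of 0.333, the smallest possible. Without wild-type replicate 1 the difference was -4.5. In the stronger 50% of each list it was -3, and the ranges of the genotypes met (exact permutation p = 0.667). By bases covered, which the long spans fill, the means were 58223.5 and 57311 nt, with an exact permutation p of 1. The summed peaks of the stem cell markers were likewise lower after knockdown, and their part in the FGF2 difference was not tested.

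The peaks of FGF2 (ENSG00000138685, plus strand, chr4:122826682-122898236, hg38) fell into a long 5′ stretch and a cluster at the 3′ end. Each list had 1 peak of over 1000 nt that began within 651 nt of the gene start. It ended at 122876400 in wild-type replicate 1 and knockdown replicate 1, and at 122892211 and 122892361 in wild-type replicate 2 and knockdown replicate 2. Chained together, these formed 1 kept region of 65304 nt. A span this long can hold introns, and exon and intron positions were not used here.

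Most of the difference in peak number lay at the 3′ end, and wild-type replicate 1 supplied most of it. The last 5660 nt of FGF2 are shared with NUDT6, a gene on the opposite strand that is known as an antisense partner of FGF2. In this stretch FGF2 had 11 and 3 peaks in wild type and 2 and 0 after knockdown. These peaks covered 1700 and 300 nt in wild type and 75 and 0 nt in the knockdown. Outside this stretch both wild-type lists also had more FGF2 peaks than either knockdown list, but not without the pseudogene peaks described below.

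In wild-type replicate 1 the peak of 122897337 to 122897611 stood at the 94.3rd percentile of its list by the authors' score, the highest of any FGF2 peak. In this stretch 2 regions were lost. The first, 122895362 to 122895511, stood at percentiles 55.2 and 9.73 of the wild-type lists. The second, 122896237 to 122896511, stood at 42.8 and 38.8. No peak number was missing at either place in the knockdown lists. The strongest knockdown peak of FGF2, 122892412 to 122892561 in replicate 2 at percentile 90.9, lay just before the shared stretch and had no counterpart in the other lists.

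NUDT6 itself had 4 and 2 peaks in wild type and 0 in each library after knockdown. Only 2 of them, both in wild-type replicate 1, lay in the shared stretch, at 122892900 to 122893199 and 122893225 to 122897599. The kit is labelled directional, but how strand was used in peak calling is not given in the sources used here, so in that library the reads of the pair may not be fully separated. A further 2 peaks in wild-type replicate 1 and 1 in wild-type replicate 2 lay in RPS26P23, a ribosomal protein pseudogene inside FGF2, and carried peak numbers from the place of another gene. Without them FGF2 had 12, 6, 3 and 2 peaks, and the genotypes still did not overlap.

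**Figure D2:**
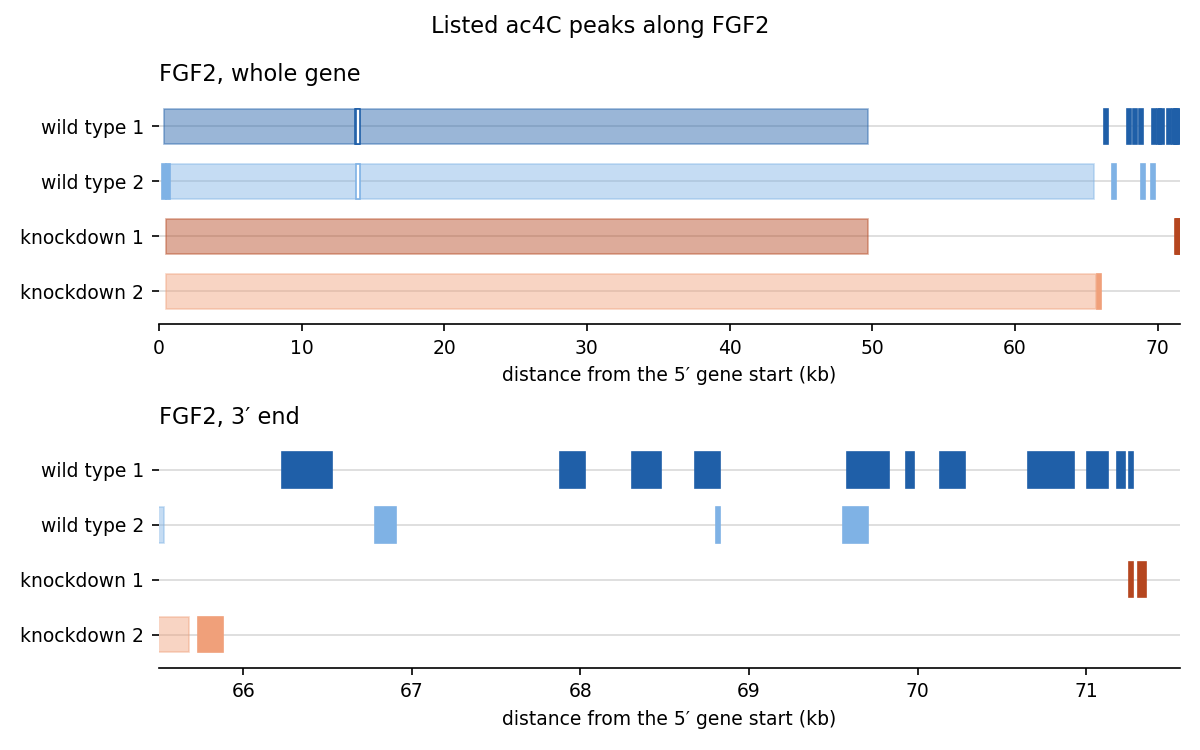
Listed peaks of FGF2 by distance from the gene start in kb (x axis), 1 row per library, over the whole gene (top) and enlarged at the 3′ end (bottom); pale boxes are peaks of over 1000 nt, and very narrow peaks are drawn at a minimum width, with open boxes for those numbered at another gene's place. The lower panel holds the 11 and 3 wild-type peaks and the 2 and 0 knockdown peaks of the stretch shared with NUDT6.

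FGFR1, the receptor with the most peaks per length of gene, had 9 and 15 peaks in wild type and 16 and 15 after knockdown. The ranges met at 15. The means were 12 ± 4.24 (SD, n = 2) and 15.5 ± 0.707 (SD, n = 2), a difference of 3.5 with an exact permutation p of 0.667. Scaled per 10000 peaks of a list, since the lists differ in length, FGFR1 had 2.37 and 3.93 in wild type and 5.76 and 4.11 after knockdown, which did not overlap (exact permutation p = 0.333). With spans up to 1000 nt the difference was 0.5. Without wild-type replicate 1 it was also 0.5, and without wild-type replicate 2 it was 6.5. Per 10 kb of gene span the mean over the 4 lists was 2.39 peaks, against 0.0771 for RPTOR and 1.52 for AKT1.

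FGFR1 (ENSG00000077782, minus strand, chr8:38411143-38468635) had peaks at places that mostly differed between lists. Of its 37 regions, 24 were in 1 list only. Of the 6 regions in both wild-type lists 3 were lost, against 52.2% of regions in all genes, and of the 6 in both knockdown lists 5 were gained, against 48.1%. The 1 kept region, 38421793 to 38421992, stood at percentiles 22.9 and 62.6 in wild type and 60.5 and 97.1 after knockdown.

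A lost and a pair of gained regions lay side by side. The lost region, 38428337 to 38428436, had identical borders in both wild-type lists and stood at percentiles 73.4 and 61.5. The gained regions were 38428612 to 38428836 and 38428862 to 38428961, at percentiles 16.3 and 46.5 and percentiles 27.7 and 62.4. Between the listed peaks on either side of the lost region, 2 numbers were missing in knockdown replicate 1 (38427962 to 38428611) and 1 in knockdown replicate 2 (38428112 to 38428761). The other lost regions, 38417340 to 38417439 and 38417715 to 38418310, lay in gaps between listed peaks with 1 missing number in knockdown replicate 1 (38412944 to 38419035) and 2 in knockdown replicate 2 (38415879 to 38418560). The gained region 38412819 to 38412943 stood at percentiles 25.8 and 75, and 38426577 to 38428111 at 42.7 and 59.2, with no number missing in wild type.

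The widest FGFR1 peak was a span of 15400 nt, 38443470 to 38458869, between 9766 and 25165 nt from the gene start. Its borders were the same in both knockdown lists, and it stood at percentiles 87.2 and 98.5 with scores of 26.5 and 83. Neither wild-type list had a peak or a missing number there. With the missing numbers inside the FGFR1 run added, an alternative chosen after seeing the data, and peaks numbered elsewhere left out, FGFR1 had a mean of 11.5 peaks in wild type and 20 in the knockdown, with an exact permutation p of 0.333.

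FGFR2, a receptor with splice forms that differ in ligand choice, had 8 and 14 peaks in wild type and 9 and 8 after knockdown. The ranges overlapped. The difference in means was -2.5 (11 ± 4.24 and 8.5 ± 0.707, SD, n = 2 each) with an exact permutation p of 1, and it was 0.5 without wild-type replicate 2. Per 10000 peaks of a list it was -0.172, with means of 2.89 and 2.72. With spans up to 1000 nt it was -4 and the genotypes did not overlap (exact permutation p = 0.333).

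The peaks of FGFR2 (ENSG00000066468, minus strand, chr10:121478330-121598458) shared few places between the wild-type lists. Only 1 region was in both, 121515241 to 121517232, and it was lost. Of the 4 regions in both knockdown lists 1 was gained, 121596796 to 121598120. A region at 121538396 to 121538626 was in 3 lists, at percentile 85.6 in wild-type replicate 2 and at 56.8 and 43.3 in the knockdown lists. A region at 121564489 to 121565496 was also in 3 lists, and so was one at 121583562 to 121593970, where the long knockdown spans ended at or near a wild-type peak.

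Parts of 2 of these regions fall in RefSeq windows around FGFR2 transcript starts (GRCh38.p14), and are shown because one was held in both genotypes and the other in the knockdown alone. The first is chr10:121593918-121593970 on the minus strand, from the region with a peak in wild-type replicate 1 and in both knockdown lists. The second is chr10:121596796-121596895 on the minus strand, from the gained region. Capitals mark a run of 8 cytidines each followed by 2 bases of any kind before the next, a spacing like that reported around ac4C in messenger RNA.
FGFR2 stretch held in both genotypes: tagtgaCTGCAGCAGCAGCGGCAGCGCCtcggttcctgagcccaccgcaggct
FGFR2 stretch in the gained region: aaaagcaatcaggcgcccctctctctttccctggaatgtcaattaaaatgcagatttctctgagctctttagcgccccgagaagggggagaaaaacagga

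The unit CNN, with N any base, repeated 4 times in a row, matched 5 times in the first stretch, overlapping matches included, and 3 times on its other strand. They matched 0 times in the second and 1 time on its other strand. At the same place in 35116 RefSeq windows, 26.9% held the motif on the strand of the gene for the first length and 40.4% for the second. On the other strand 35.8% and 39.4% held it. A run of at least 8 cytidines at this spacing stood in 1.42% of the windows for the first length. Cytidine made up 35.8% of the first stretch, against a median of 28.3% over the windows.

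FGFR3 had no peak in any list. FGFR4 had 0 and 0 peaks in wild type and 2 and 4 after knockdown. Both knockdown values lay above both wild-type values, with means of 0 and 3 ± 1.41 (SD, n = 2) and an exact permutation p of 0.333. FGFR4 (ENSG00000160867, plus strand, chr5:177086915-177098144) gained 1 region shared by both knockdown lists, 177090642 to 177090832, at percentiles 83.4 and 30, and no peak number was missing at the place of FGFR4 in either wild-type list.

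**Figure D3:**
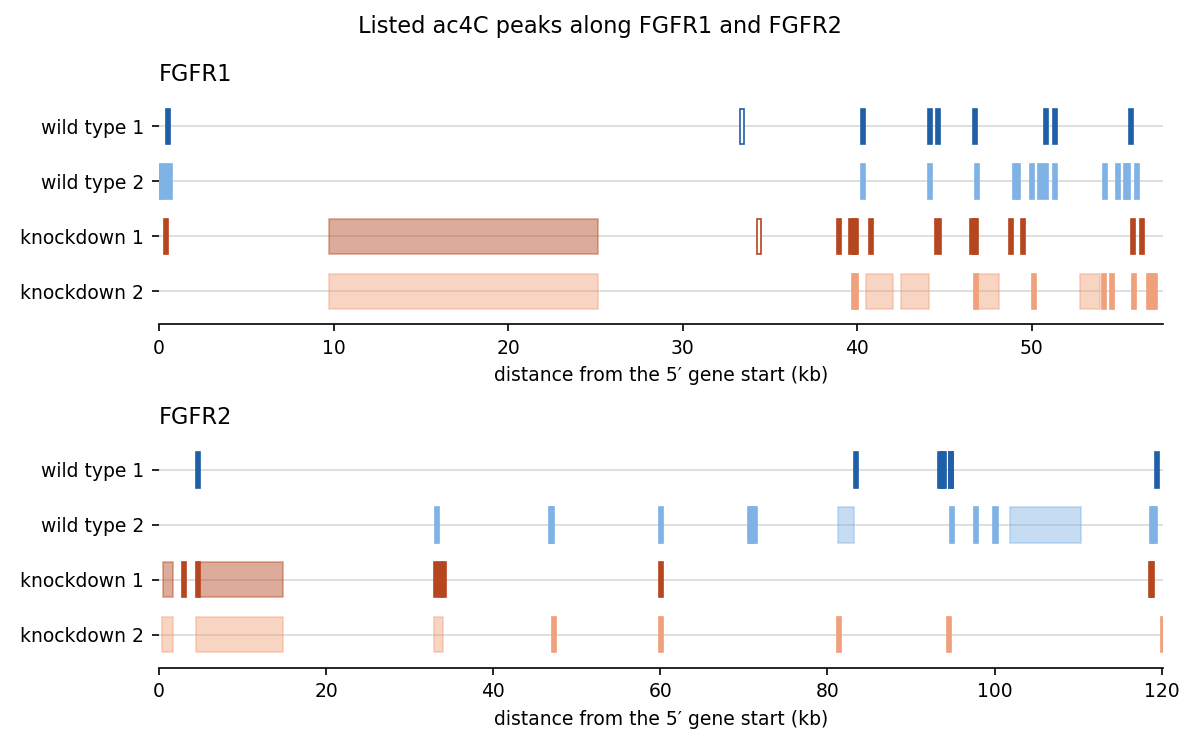
Listed peaks of FGFR1 (top) and FGFR2 (bottom) by distance from the gene start in kb (x axis), 1 row per library; pale boxes are peaks of over 1000 nt, and very narrow peaks are drawn at a minimum width, with open boxes for those numbered at another gene's place. The 15400 nt span of FGFR1 stands in both knockdown rows and in neither wild-type row.

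AKT1 had 2 and 0 peaks in wild type and 3 and 11 after knockdown. Both knockdown values lay above both wild-type values, but 1 library supplied most of the difference. The means were 1 ± 1.41 and 7 ± 5.66 (SD, n = 2 each), with an exact permutation p of 0.333. The difference was 6, and 2 without knockdown replicate 2.

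In AKT1 (ENSG00000142208, minus strand, chr14:104769349-104795748), a kinase that phosphorylates regulators of growth and survival, 2 regions were gained, ending 1474 and 2999 nt short of the 3′ end. The one at 104770823 to 104770847 had identical borders in both knockdown lists and stood at percentiles 75.5 and 91.2. The one at 104772348 to 104772422 stood at 54 and 33.9. No number was missing at either place in the wild-type lists. The wild-type peaks were single, 1 near the 3′ end that knockdown replicate 2 shared and 1 near the gene start that no other list held. At the place near the gene start, 1 number was missing in each knockdown list.

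AKT2, the isoform best known for insulin-stimulated glucose uptake, had 5 and 0 peaks in wild type and 4 and 4 after knockdown. The ranges overlapped, and the wild-type libraries differed from each other more than the genotypes did. The means were 2.5 ± 3.54 and 4 ± 0 (SD, n = 2 each), a difference of 1.5 with an exact permutation p of 1. It was -1 without wild-type replicate 2. The 1 gained region of AKT2 (ENSG00000105221, minus strand, chr19:40230317-40285345), 40255243 to 40265235, had 1 missing number at its place in each wild-type list.

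MTOR, the kinase of mTORC1 and mTORC2, had 18 and 8 peaks in wild type and 5 and 8 after knockdown. The ranges met at 8. The means were 13 ± 7.07 and 6.5 ± 2.12 (SD, n = 2 each), a difference of -6.5 with an exact permutation p of 0.667. Without wild-type replicate 1 it was -1.5, and in the stronger 50% of each list it was -0.5.

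MTOR (ENSG00000198793, minus strand, chr1:11106535-11262551) had 8 peaks of over 1000 nt in wild-type replicate 1. In every list its listed peaks lay towards both ends of the gene, and none lay between 53151 and 115830 nt from the gene start. In knockdown replicate 1, 2 numbers were missing somewhere between 11130783 and 11259337, an interval that holds this gap. The lost region 11127049 to 11127677 stood at percentiles 19.8 and 32.9 of the wild-type lists, and 1 number was missing somewhere in the gap of 11107385 to 11128529 that holds it in knockdown replicate 1. The gained region 11259313 to 11259437 lay 3114 nt from the gene start and stood at percentiles 44 and 48.4, with no number missing in the wild-type lists. The highest MTOR peak of wild-type replicate 1, 11144667 to 11144766 at percentile 85.1, lay over a peak of MTOR-AS1, an antisense RNA, at percentile 92.4 of the same list. The reads of this pair may not be fully separated.

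RPTOR had 0 and 0 peaks in wild type and 5 and 8 after knockdown. Both knockdown values lay above both wild-type values. The mean in the knockdown was 6.5 ± 2.12 (SD, n = 2), with an exact permutation p of 0.333. Only 1 region of RPTOR (ENSG00000141564, plus strand, chr17:80544838-80966368) was shared by both knockdown lists, 80822202 to 80823153 at percentiles 79.6 and 76.4. A number was missing at the place of RPTOR in wild-type replicate 1 and none in wild-type replicate 2. Another 4 of the 8 peaks in knockdown replicate 2 and 1 in knockdown replicate 1 ended at most 1774 nt short of the 3′ end.

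**Figure D4:**
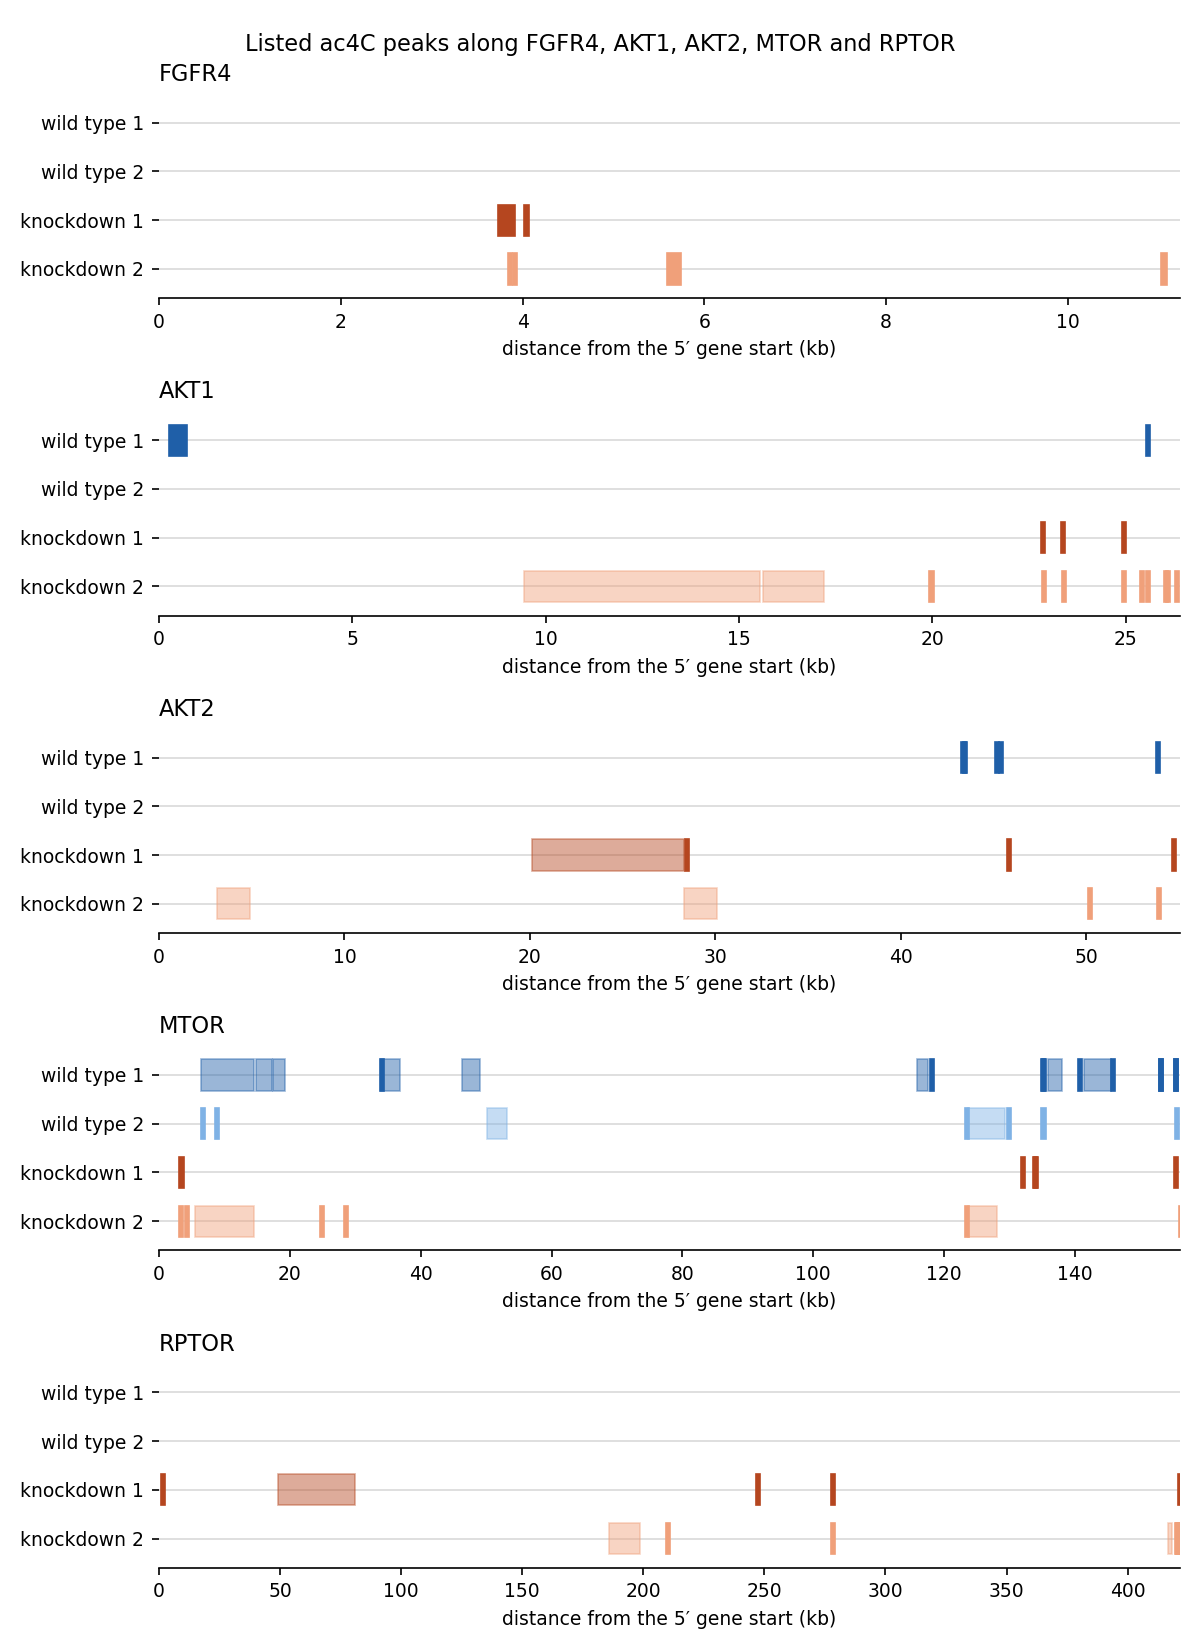
Listed peaks of FGFR4, AKT1, AKT2, MTOR and RPTOR by distance from the gene start in kb (x axis), 1 row per library; pale boxes are peaks of over 1000 nt, and very narrow peaks are drawn at a minimum width. FGFR4 and RPTOR have peaks in the knockdown rows alone, and the MTOR peaks of every library lie towards the ends of the gene with a wide gap between them.

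The 207 peaks formed 150 of 89916 regions, and 114 of the 150, or 76%, were in 1 list only, against 69.1% in all genes. Of 12 regions found in both libraries of wild type 7 were lost, or 58.3%, against 52.2% in all genes. Of 17 found in both knockdown libraries 12 were gained, or 70.6%, against 48.1%, and 2 of the 150 were kept, in FGF2 and FGFR1, against 3.4% of regions in all genes. The other 15 regions in more than 1 list were held by 2 or 3 lists of both genotypes. At 10 of the 12 gained regions no peak number was missing in either wild-type list, and at 3 of the 7 lost regions none was missing in either knockdown list. These 2 counts are not on equal terms. Over the whole lists, 6048 and 6713 numbers were missing in wild type and 7213 and 8564 in the knockdown.

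In each of the 4 lists, more of these peaks overlapped the other list of the same genotype than either list of the other genotype. Between 26.8% and 42.6% of the members' peaks overlapped a peak of the other library of the same genotype, against 11.7% to 27.3% across genotypes. Among all peaks the corresponding shares were 35.6% to 50.6% and 19.8% to 26.9%. The members' share of a list was 0.147% and 0.115% in wild type and 0.169% and 0.164% in the knockdown, and the median percentile of their peaks was 41.1, 41.4, 44 and 43.7.

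A wider list of 119 genes from 11 roles in the pathway was read in the same way, and 97 of them had a peak. Of 56 found in both libraries of wild type 6, or 10.7%, were lost, against 12.8% of all genes. Of 51 found in both knockdown libraries 8, or 15.7%, were gained, against 17.1%. Another 35, or 36.1%, were kept, against 32.3%. Peak numbers were higher in wild type with no overlap for 27 genes, or 27.8%, against 22.3%, and higher in the knockdown for 13, or 13.4%, against 16.6%. The median difference was -1, against -0.5 over all genes.

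The lost genes included 2 of PI3K signalling. PIK3CB, a catalytic subunit of PI3K, had 5 and 5 peaks in wild type, and PIK3C3, the class III enzyme of autophagy, had 9 and 7. SPRED1, an inhibitor of RAS signalling, had 8 and 5, ETV4, a transcription factor induced by ERK, had 2 and 5, and SESN1, a stress-induced inhibitor of mTORC1, had 2 and 2. Of these 5, only PIK3CB had no number missing at its place in either knockdown list.

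The gained genes included kinases of the RAS and ERK branch: ARAF with 4 and 7 peaks, MAPK3 (ERK1) with 2 and 3, and RPS6KA1, a kinase downstream of ERK, with 4 and 5. PIK3R2, a regulatory subunit of PI3K, had 6 and 12. The AKT substrates FOXO4 and GSK3A had 2 and 8 and 3 and 10. ULK1, which starts autophagy, had 2 and 6, and MAF1, a repressor of RNA polymerase III, had 9 and 6. Each of the 8 had a number missing at its place in at least 1 wild-type list. The lost genes were long, with a median RefSeq span of 122 kb, and the gained genes short, at 11.6 kb. Over all genes the medians were 45.6 kb for lost and 15.9 kb for gained genes, and the part of gene length in these calls was not tested.

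Among kept genes of the wider list, the largest differences were all towards wild type. EIF4EBP2, a translation repressor that mTORC1 phosphorylates, had 19 and 11 peaks in wild type and 3 and 2 in the knockdown. IGF1R, the IGF1 receptor, had 11 and 31 against 9 and 10, and PTPN11, the phosphatase SHP2 that links receptors to RAS, had 18 and 13 against 3 and 5. SOS1, the exchange factor for RAS, had 17 and 9 against 5 and 5. LARP1, which binds mRNAs under mTORC1 control, had 16 and 18 against 12 and 9. The genotypes did not overlap in any of these 5, which were picked for a large difference. Of the 35 kept genes of the wider list, 12 were higher in wild type with no overlap, against 31.9% of all kept genes. Another 4 were higher in the knockdown with no overlap, against 12.6%.

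Among the genes of the wider list most like FGF2, by the sum of absolute differences in peak number over the 4 lists, were RICTOR at 6 and DUSP6 at 7. RICTOR, the scaffold of mTORC2, had 8, 7, 3 and 2 peaks, and DUSP6, an ERK phosphatase, had 10, 7, 2 and 0.

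**Figure D5:**
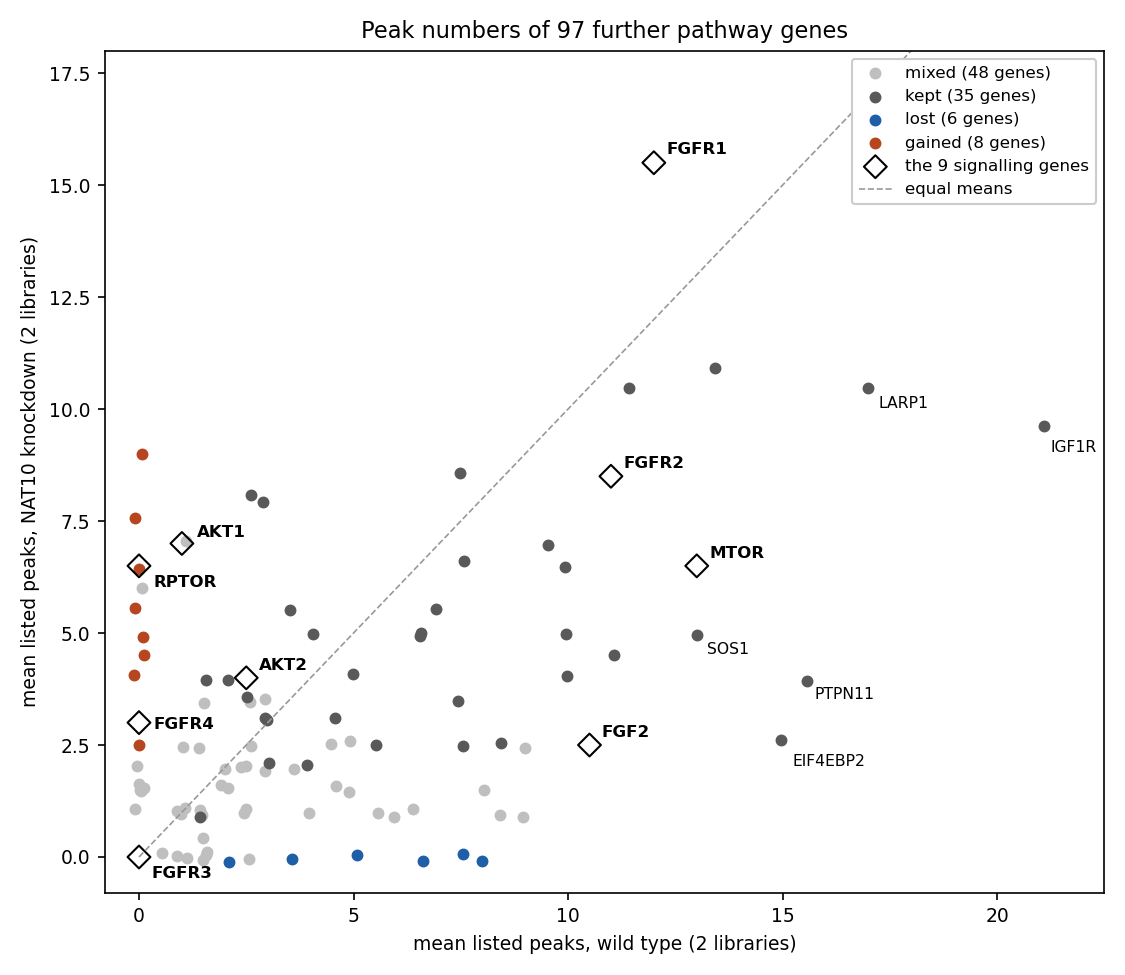
Mean number of listed peaks in the 2 wild-type libraries (x axis) against the 2 knockdown libraries (y axis) for 97 genes of the wider list, coloured by class, with the 9 signalling genes as diamonds; points of the wider list are shifted slightly so that they do not hide each other. FGF2 and MTOR lie below the line of equal means among kept genes such as PTPN11 and SOS1, while RPTOR, FGFR4 and AKT1 lie near the knockdown axis.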

How the data were processed

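The members and gene lists were chosen with earlier results of these data known. The submitters' processing notes name build hg38 and the tools HISAT2 2.2.1, fastp 0.21.1, bedtools 2.30.0 and SAMtools 1.12. Which caller, threshold, control library and annotation gave the peaks was not given in the sources used here. The labels' protocols give removal of ribosomal RNA and fragments of about 200 nt, although the molecule is also labelled poly(A) RNA. The deposited score of each peak is the authors' own, its meaning is not stated, none was below 10 and some were infinite. It was used only as a percentile within a list. Starts count from 0 in the deposited lists and from 1 here.

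Lists were matched to the immunoprecipitation libraries by name. Peaks on the same strand that overlapped by at least 1 bp were merged into regions. Peak numbers follow the order of gene identifiers and, in 99.5% of 107670 neighbouring pairs within a gene, run 5′ to 3′, so a number that no listed peak carries could be placed. The number of peaks per gene was tested over the 6 arrangements of the 4 libraries with an exact permutation test, two-sided, in Python 3.11.15 with pandas 2.3.3, NumPy 2.4.6 and SciPy 1.17.1. The procedure was tested on simulated lists of short, well separated peaks in full order of gene identifiers. Long spans, peaks numbered at another gene and missing numbers inside a gene were not simulated. RefSeq gave gene spans and sequences.

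Named by rule were all 9 members and their regions in 2 or more lists (those mixed between genotypes are given mostly as a count), every lost or gained gene of the wider list, the 5 kept genes of largest difference, the 3 genes most like FGF2, and genes overlapping member peaks on the other strand. Some genes that the rule takes from the wider list are not reported here. Alternatives left out each library, kept the stronger 50% of each list or spans up to 1000 nt, asked for 50% overlap, dropped merging, scaled per 10000 peaks, took covered bases, and used a replicate block. Those on peak numbering were chosen after seeing the data.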

Additional observations from a re-analysis of the deposited data

How the results depend on the processing

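Of 192 alternative values for 21 results, 160 were labelled the same, 27 moved and 5 changed sign. A difference in peak number was labelled the same if it kept its sign, whatever its size, and a count if it stayed within a set fold change. Some values could not change, such as those of FGFR3 and those with the replicate block. No alternative could reverse FGFR4 or RPTOR, which had 0 peaks in both wild-type lists. Leaving out 1 library could not reverse FGF2 or AKT1 either, since their genotypes did not overlap. FGF2, FGFR1, FGFR4, AKT1, MTOR and RPTOR kept their direction in all 11 alternatives each, though not their size. FGF2 differed by -912 nt in bases covered, and FGFR1 by 0.5 peaks with spans up to 1000 nt. In the stronger 50% of each list FGF2 differed by -3 peaks, MTOR by -0.5 and FGFR4 by 0.5. The causes of the changes below were not tested. Leaving out 1 library at a time gave differences of -5.5 to 0.5 peaks for FGFR2, positive without wild-type replicate 2, and of -1 to 4 for AKT2, negative without wild-type replicate 2. Member genes gained then numbered 2 to 4, highest without wild-type replicate 1, and mixed genes 0 to 2, with 0 without either wild-type library. Lost regions numbered 8 to 44, moved by leaving out either wild-type library, and gained regions 13 to 48, moved by leaving out either knockdown library, since 1 library then decides its group. Kept regions numbered 3 to 4. Lost genes of the wider list numbered 9 to 16, moved without wild-type replicate 2 or either knockdown library, and gained ones 9 to 14, moved without knockdown replicate 1. With the stronger 50% of each list the difference was 2 for FGFR2 and -0.5 for AKT2. Member genes gained, kept and mixed were then 1, 2 and 5, regions lost, gained and kept were 1, 4 and 0, and lost genes of the wider list were 10. The share of a list in the members then differed by 0.053 percentage points between genotypes, against 0.0354, and the median percentile by 7.69, against 2.57. With spans up to 1000 nt that percentile difference was 1.46, AKT2 differed by 0 and 1 region was kept. By bases covered FGFR2 differed by 6729.5 nt, higher after knockdown. Without merging 4 regions were kept. Counting genes with no missing number at their place left 1 gained member, FGFR4. With the replicate number as a block the smallest exact permutation p is 0.5, the p for FGF2 was 0.5 and no difference changed. The numbers pair no samples in the labels, and same-numbered libraries deviated with a correlation of 0.0149 across 10992 genes.

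The main limits are 2 libraries a group, unknown depth, a score of unstated meaning and no value of RNA amount.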
